A study of Homo sapiens with 5 samples.

Results

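Core A compartment bins are the 1 Mb stretches of each autosome that lie at one extreme of its main contact pattern in the control cells. They were chosen in the control library, from its observed over expected contacts, as the top 20% of bins per chromosome by the first eigenvector of their correlations. The sign of the eigenvector was set so that it correlated positively with the ratio of a bin's contacts with other chromosomes (trans) to those within its own chromosome (cis). Of 2635 measured bins of chromosomes 1 to 22, 527 were core A. The lowest 20% per chromosome, 527 bins, are called core B here, and the other 1581 are called intermediate. The members were therefore chosen on values of the control library alone. The control's cis signal and trans to cis ratio are given below only as a description, with no test.

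Chromosomes fold so that active, gene-dense and early-replicating regions (compartment A) contact each other, while inactive, gene-poor regions (compartment B) contact each other. A regions of different chromosomes often meet in the interior of the nucleus around shared bodies such as speckles, and B regions lie more often at the lamina and around nucleoli. ARID1A belongs to the SWI/SNF (BAF) complexes, which move and evict nucleosomes, and its gene is often mutated in clear cell tumours of the ovary. CAPH2 (NCAPH2) is the kleisin of condensin II, which shortens chromosomes and keeps their territories apart.

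In situ Hi-C, which ligates and sequences pieces of DNA that lie close together in the nucleus, was done in 5 libraries of RMG1, a cancer cell line from an ovarian clear cell carcinoma. The ARID1A KO group (2 libraries) carried a CRISPR knockout of ARID1A with wild-type CAPH2. The CAPH2 KD group (2 libraries) carried a hairpin RNA against CAPH2 with wild-type ARID1A. The control (1 library) carried a control hairpin, with both genes wild type. The title of the series names the distribution of condensin II and the partition of chromosomes as its subject.

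The labels do not say whether replicates were separate cultures or clones, so the spread behind each p-value is that of these libraries alone and may be technical. Knockout and hairpin methods differ between the KO group and both other groups, and gene and method cannot be told apart there. The deposited signal is balanced, that is, scaled so that nearly all bins of a library have the same total. Whole contacts could be recovered from it, and they numbered 30.7 M and 31.7 M (M for 1000000) in the KO libraries, 54.3 M and 82.8 M in the KD libraries and 46.7 M in the control. Among pairs of bins on different chromosomes, 23.2% and 23.5% held no contact in the KO libraries, 8.17% and 3.68% in the KD libraries and 11.2% in the control.

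Core A bins formed 205 blocks of neighbouring bins, of which 78 were single bins, with a median length of 2 Mb. Core B bins formed 256 blocks, 113 of them single bins, with the same median of 2 Mb and a longest block of 9 Mb. The longest core A block covered 15 Mb, on chromosome 11 from 61000001 to 76000000 (hg19). The next longest were 11 Mb on chromosome 1 from 19000001 to 30000000 and 10 Mb on chromosome 3 from 40000001 to 50000000. Blocks of 5 Mb or more numbered 25 and held 172 of the 527 core A bins, against 16 blocks with 101 core B bins. Chromosome ends were rich in core A: 81 core A bins (15.4%) lay within 5 Mb of the end of the measured chromosome, against 10 core B bins (1.90%) and 204 of all bins (7.74%). The median distance from the nearer end was 27 Mb for core A and 42 Mb for core B.

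The first eigenvector held from 19.95% (chromosome 5) to 44.3% (chromosome 22) of the variance of the control's correlation matrix. Its correlation with the trans to cis ratio, which fixed the sign, ran from 0.38 on chromosome 17 to 0.80 on chromosome 5. In units of its SD per chromosome, the lowest core A bin ranged from 0.527 on chromosome 3 to 1.22 on chromosome 17. The highest bin just outside ranged from 0.472 on chromosome 3 to 1.198 on chromosome 17. The gap between both was widest on chromosome 21, at 0.890 inside and 0.652 outside. The highest value of all belonged to the bin from 140000001 to 141000000 of chromosome 4, with 1.65 and 1.73 in the KO libraries, 1.47 and 1.46 in the KD libraries and 1.58 in the control. On chromosome 5 the bin from 149000001 to 150000000 had -0.26 and 1.51 in the KO libraries, 1.45 and 1.25 in the KD libraries and 1.57 in the control. On chromosome 2 the bin from 10000001 to 11000000 had 1.64 and 1.59 in the KO libraries, 1.44 and 1.34 in the KD libraries and 1.55 in the control. Genes in single bins were not counted, since no annotation of hg19 was at hand, and no expression or histone data were used. The name A therefore rests on the sign rule, and the contacts below describe how these bins behaved.

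Most core A bins kept their place in libraries that did not take part in the choice. The sign of each of their eigenvectors was set per chromosome to correlate positively with the control's, so positive values were in part built in. In the ARID1A KO libraries 424 (80.5%) and 455 (86.3%) of the 527 bins were again in the top 20% of their chromosome, against 478 (90.7%) and 476 (90.3%) in the CAPH2 KD libraries. All 4 of these libraries kept 358 bins (67.9%), and 8 bins (1.52%) were kept by none. The median eigenvector of the members was 1.21 and 1.22 in the KO libraries, 1.18 and 1.19 in the KD libraries and 1.19 in the control. No core A bin turned negative in the KD libraries, 8 did in KO replicate 1 and 1 in KO replicate 2. All 8 of KO replicate 1 were on chromosome 5, where the leading eigenvector of that library was unrelated to the control's (r = 0.0029 across bins). The sign of its values on chromosome 5, and so the count of 8, was therefore close to arbitrary. The bin of KO replicate 2 lay on chromosome 19 from 16000001 to 17000000, with an eigenvector of -0.14 there, 0.93 in KO replicate 1, 1.01 and 1.03 in the KD libraries and 0.95 in the control. Its contacts with core A bins of other chromosomes stayed high in every library, as the log2 preference defined below was 0.79 and 0.83 in the KO libraries, 0.89 and 0.92 in the KD libraries and 0.90 in the control. Chromosome medians of the correlation with the control were 0.95 and 0.97 in the KO libraries and 0.99 in both KD libraries.

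Between chromosomes, core A bins contacted each other far more than the average pair of bins in all 5 libraries, and the excess was slightly smaller in ARID1A KO. The mean signal over the 131112 core A pairs on different chromosomes, relative to the mean of all 3277205 trans pairs of the library, was 1.77 and 1.78 in the KO libraries, 1.82 and 1.82 in the KD libraries and 1.82 in the control. The KO libraries were below both other groups, without overlap, and the difference from the KD libraries was -0.042. Contacts of core A with core B bins were below average in every library, at 0.725 and 0.691 in the KO libraries, 0.633 and 0.628 in the KD libraries and 0.653 in the control. Here the KO libraries were the highest, and they were also highest for core A with intermediate bins (1.09 and 1.09, against 1.04 and 1.04 in the KD libraries and 1.06 in the control). Core B bins contacted each other across chromosomes only slightly above average, at 1.01 and 1.03 in the KO libraries, 1.19 and 1.19 in the KD libraries and 1.12 in the control. An exact permutation test of 2 KO against 2 KD libraries gave a two-sided p of 0.333 for each of these classes, which is the smallest such a design allows.

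**Figure D1:**
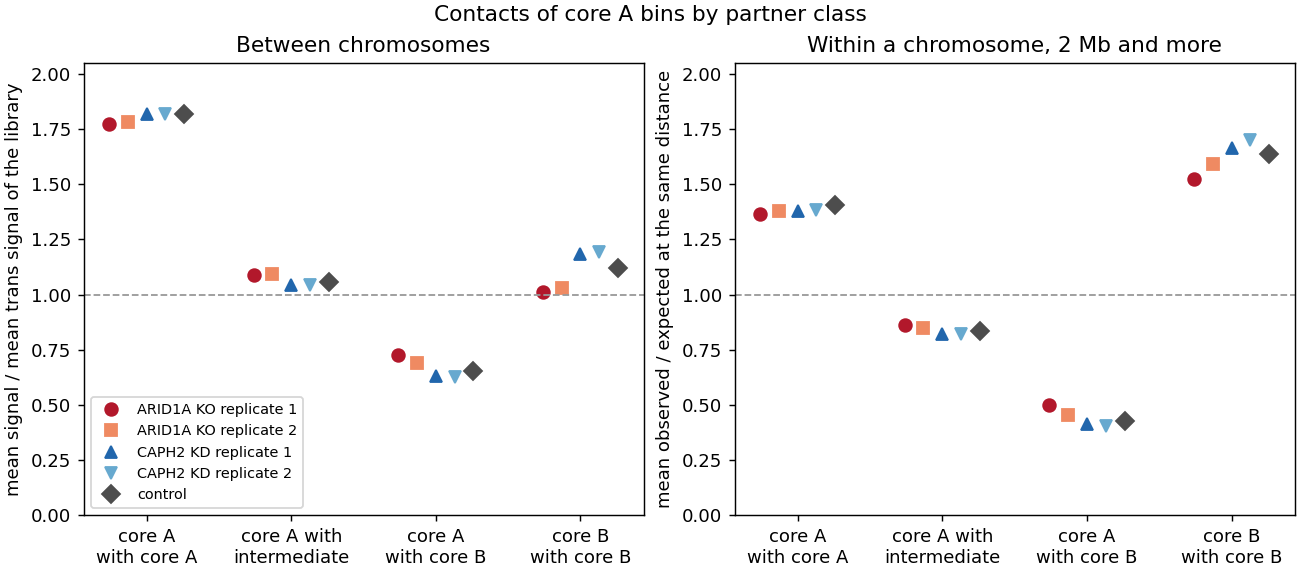
Contacts of core A bins by class of the partner bin, with core B pairs for comparison; each point is 1 library. The left panel gives mean trans signal over the library's mean trans signal, and the right panel gives mean observed over expected signal within chromosomes at 2 Mb or more. Core A pairs lie between 1.77 and 1.82 on the left, and core A with core B pairs are below 1 in both panels, highest in the 2 ARID1A KO libraries.

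Core A bins sent a larger part of their trans signal to core A than the number of such partners alone would give. Core A bins gave 30.7% and 31.0% of their trans signal to other core A bins in the KO libraries, 32.6% and 32.6% in the KD libraries and 32.2% in the control, while core A bins made up 20% of their possible partners. For all bins these shares were 23.08% and 23.01% in the KO libraries, 22.3% and 22.3% in the KD libraries and 22.6% in the control. Very strong trans pairs, over 20 times the mean trans signal in at least 1 library, held 2.80% and 2.80% of the core A trans signal with their surroundings in the KO libraries, 2.57% and 2.59% in the KD libraries and 2.86% in the control. Without 3915 pairs at or within 2 Mb of them, of which 480 were core A pairs, the mean ratio was 1.75 and 1.76 in the KO libraries, 1.80 and 1.80 in the KD libraries and 1.79 in the control.

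The direction of the KO difference depended on balancing. In recovered contacts, before balancing, core A bins had more contacts than average in the KO libraries, at 1.19 and 1.19 of the library mean per bin, against 0.898 and 0.922 in the KD libraries and 0.941 in the control. Core B bins showed the opposite, at 0.787 and 0.776 in the KO libraries, 1.06 and 1.03 in the KD libraries and 1.01 in the control. In these unbalanced contacts the core A trans ratio was 2.15 and 2.14 in the KO libraries, 1.56 and 1.61 in the KD libraries and 1.65 in the control, so the KO libraries were the highest. Core A pairs held 8.61% and 8.58% of all recovered trans contacts in the KO libraries, 6.26% and 6.45% in the KD libraries and 6.61% in the control. Exact binomial intervals (95%, Clopper-Pearson) were 8.59% to 8.63% in KO replicate 1 and 6.60% to 6.63% in the control. They cover counting error only and take in no spread between libraries. Balancing divides out the number of contacts per bin, whatever its source. The part of read yield and of contact in this gap was not tested.

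**Figure D2:**
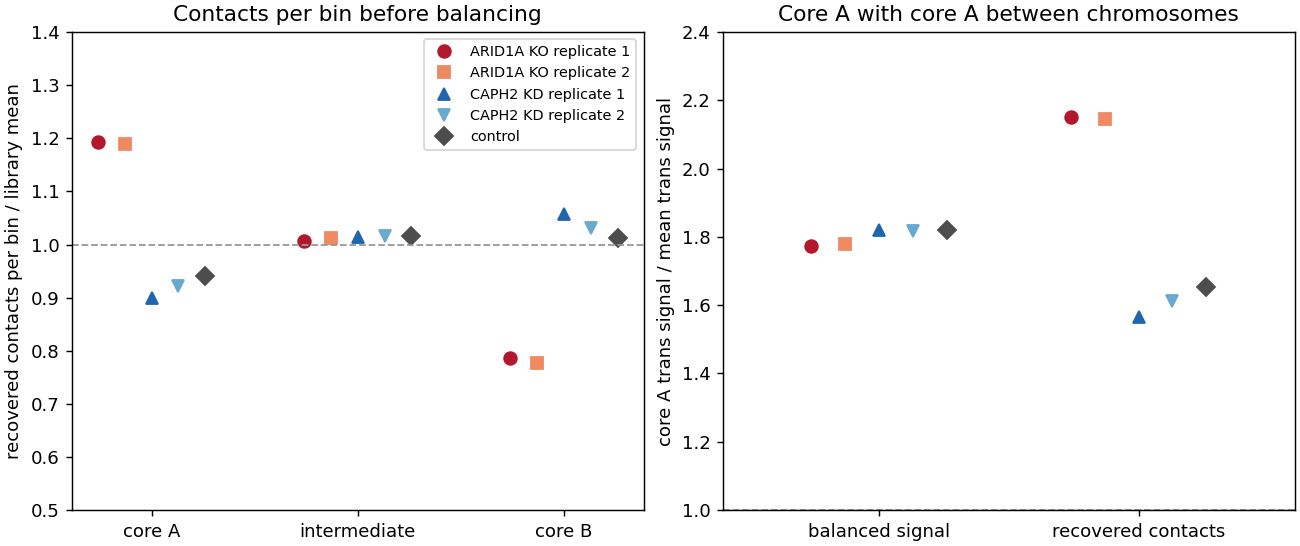
Contacts per bin before balancing and the core A trans ratio with and without balancing; each point is 1 library. On the left, recovered contacts per bin over the library mean are 1.19 for core A in both ARID1A KO libraries and below 1 in the other 3 libraries. On the right, the mean signal of core A pairs between chromosomes over the library's mean trans signal is lowest in the KO libraries in balanced signal and highest there in recovered contacts.

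Within chromosomes, balanced signal between core A bins was above expectation from 10 Mb and below it at shorter distances. Since the rule used the control's cis signal, an excess in the control is in part built in. Over 7167 core A pairs at 2 Mb or more, the mean of observed over expected was 1.37 and 1.38 in the KO libraries, 1.38 and 1.38 in the KD libraries and 1.404 in the control. KO and KD libraries overlapped, with a difference of -0.0087 (exact permutation test, two-sided p = 0.667). At 2 to 5 Mb the ratio was below 1, at 0.776 and 0.741 in the KO libraries, 0.749 and 0.755 in the KD libraries and 0.775 in the control. At 5 to 10 Mb it was still below 1, at 0.912 and 0.890 in the KO libraries, 0.925 and 0.926 in the KD libraries and 0.939 in the control. From 10 Mb it was above 1, and at 50 to 100 Mb it was 1.62 and 1.69 in the KO libraries, 1.63 and 1.65 in the KD libraries and 1.68 in the control. Core B pairs had no such dependence on distance, with values from 1.44 to 1.83 over all distances and libraries.

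Balanced signal of core A bins with core B bins of their own chromosome was below expectation at all distances. The rule placed these bins at opposite ends of the control's cis pattern, so this direction was largely set by the choice. Over 15502 such pairs the ratio was 0.498 and 0.455 in the KO libraries, 0.414 and 0.402 in the KD libraries and 0.428 in the control. The KO libraries were the highest in all 6 distance classes. For 10 to 20 Mb the values were 0.528 and 0.452 in the KO libraries, 0.396 and 0.375 in the KD libraries and 0.423 in the control. The exact two-sided permutation p for all distances, KO against KD, was 0.333, the smallest possible. In recovered contacts core A pairs within chromosomes were higher in the KO libraries at every distance, and no longer all below 1 at short ones. At 2 to 5 Mb they had 1.02 and 0.956 in the KO libraries, 0.632 and 0.662 in the KD libraries and 0.698 in the control, and at 5 to 10 Mb 1.19 and 1.17 in the KO libraries, 0.817 and 0.848 in the KD libraries and 0.879 in the control. At 50 to 100 Mb the KO libraries had 2.01 and 2.07, against 1.44 and 1.498 in the KD libraries and 1.57 in the control.

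**Figure D3:**
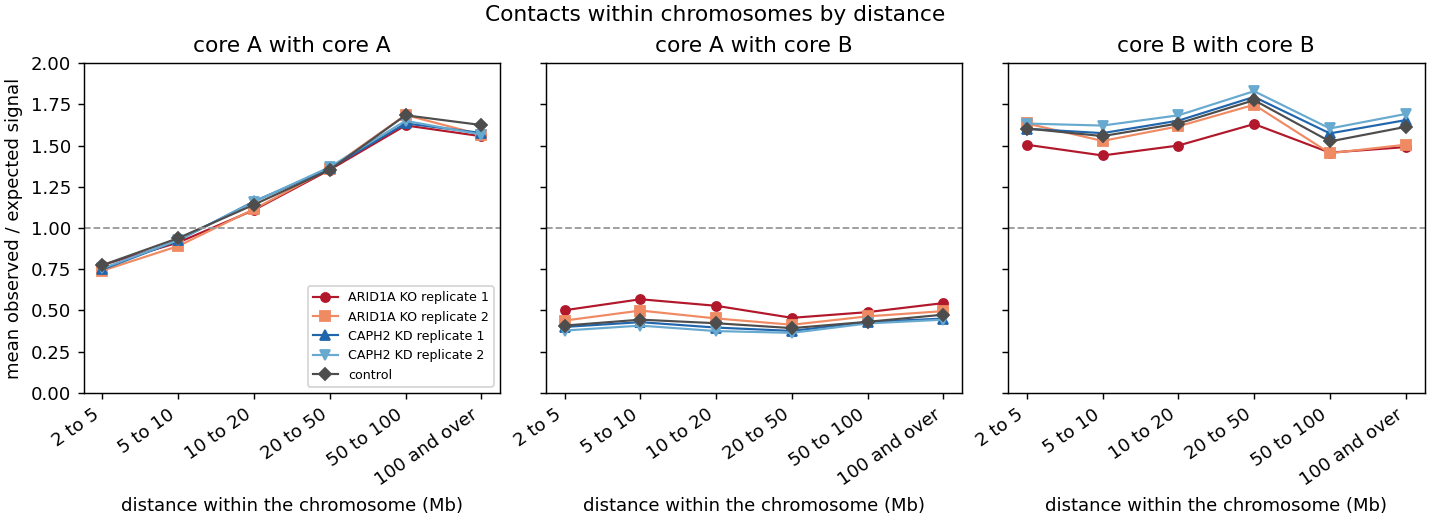
Mean observed over expected signal within chromosomes against distance class, 1 line per library, for core A pairs, core A with core B pairs and core B pairs. Core A pairs lie below 1 up to 10 Mb and reach 1.62 to 1.69 at 50 to 100 Mb in every library, while core B pairs stay at 1.44 or higher.

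Chromosomes differed widely in how much their core A bins joined those of other chromosomes. Relative to the mean trans signal of the same chromosome, the control's core A trans ratio was above 1 on all 22 chromosomes. In the control it was highest on chromosome 20 (1.99 and 2.00 in the KO libraries, 2.11 and 2.11 in the KD libraries, 2.12 in the control), chromosome 19 (1.96 and 1.92 in the KO libraries, against 2.12 and 2.10 in the KD libraries and 2.12 in the control) and chromosome 17 (1.97 and 1.95 in the KO libraries, against 2.12 and 2.11 in the KD libraries and 2.08 in the control). It was lowest on chromosome 13, at 1.49 and 1.31 in the KO libraries, 1.31 and 1.31 in the KD libraries and 1.27 in the control. Next lowest were chromosomes 18 (1.54 and 1.58 in the KO libraries, against 1.45 and 1.46 in the KD libraries and 1.52 in the control) and then 4 (1.63 and 1.68 in the KO libraries, against 1.64 and 1.63 in the KD libraries and 1.65 in the control). Both KO libraries were below both KD libraries on 14 of the 22 chromosomes (63.6%), above on chromosome 18 alone, and overlapped with them on 7. These ratios are of balanced signal and were not computed in recovered contacts.

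The order of the chromosomes followed their gene density. Protein-coding genes per measured bin, from the RefSeq annotation of GRCh38.p14 and so of another build than the contacts, ran from 3.56 on chromosome 13 to 27.4 on chromosome 19. Across the 22 chromosomes, Spearman's rho between this density and the core A trans ratio was 0.86 and 0.80 in the KO libraries, 0.93 and 0.92 in the KD libraries and 0.92 in the control. The points share each library, and core A pairs between 2 chromosomes enter both, so the correlation is a description. Within chromosomes the same rho was 0.083 and 0.10 in the KO libraries, 0.26 and 0.23 in the KD libraries and 0.17 in the control. Core A pairs within a chromosome were below expectation in the control on chromosome 21 (0.790), chromosome 13 (0.881) and chromosome 19 (0.966), and highest on chromosome 12 (1.69).

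**Figure D4:**
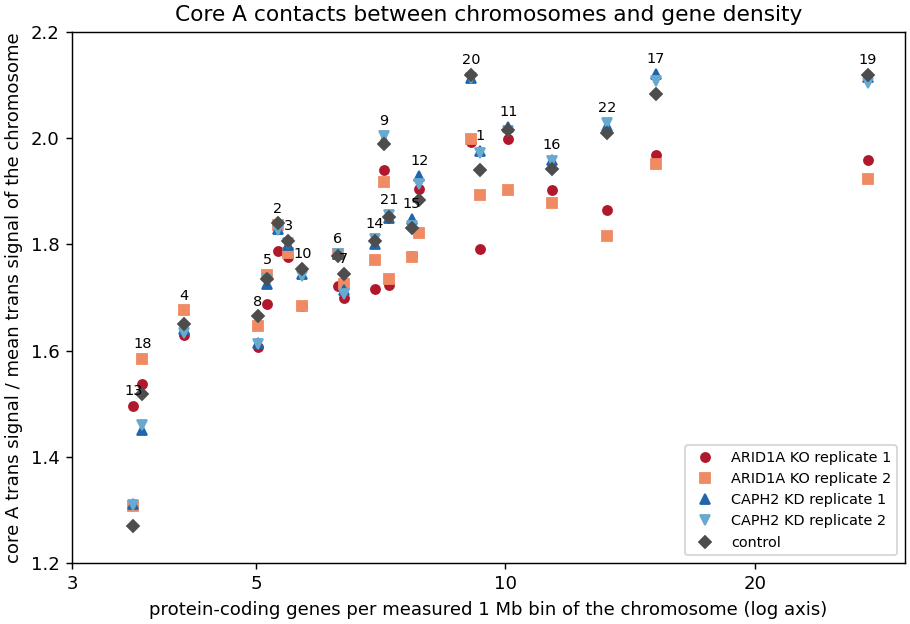
Balanced core A trans signal over the mean trans signal of the chromosome, against protein-coding genes per measured 1 Mb bin (log axis). Each point is a chromosome in 1 library, and numbers name the chromosome. In the control the ratio is lowest on the gene-poor chromosomes 13, 18 and 4 and highest on chromosomes 17, 19 and 20, and on chromosomes 17, 19 and 20 both ARID1A KO libraries lie below the other libraries.

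Core A pairs within the small gene-rich chromosomes 16, 17, 19, 20 and 22 (1418 pairs) had 3.71 and 3.60 times the mean trans signal in the KO libraries, 4.24 and 4.18 in the KD libraries and 4.09 in the control. Relative to all bin pairs of the same chromosomes, the ratio was 2.13 and 2.11 in the KO libraries, 2.32 and 2.30 in the KD libraries and 2.33 in the control. Both scales are of balanced signal, and there they place the KO libraries lowest. The ratios of these classes were not computed in recovered contacts, where the genome-wide difference turned. Core A pairs within chromosomes 1 to 5 (16437 pairs) had 1.71 and 1.75 times the mean trans signal in the KO libraries, 1.75 and 1.75 in the KD libraries and 1.77 in the control. Where both bins were within 5 Mb of a chromosome end (3095 pairs), the signal was 3.36 and 3.003 times the mean in the KO libraries, 3.38 and 3.35 in the KD libraries and 3.36 in the control. Compared with all end pairs it was 1.74 and 1.72 in the KO libraries, 1.78 and 1.77 in the KD libraries and 1.79 in the control.

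Each bin was next given a trans core A preference, the log2 of its mean signal with core A bins of other chromosomes over its mean signal with all bins of other chromosomes. In the control 520 of 527 core A bins had a preference above 0, against 9 of 527 core B bins and 1301 of all 2635. In the KO libraries 524 and 524 core A bins were above 0, and in the KD libraries 521 and 522. The median over core A was 0.61 and 0.62 in the KO libraries, 0.69 and 0.68 in the KD libraries and 0.66 in the control. Over core B it was -0.30 and -0.36 in the KO libraries, -0.58 and -0.58 in the KD libraries and -0.49 in the control. The highest core A preference in the control was on chromosome 9 from 139000001 to 140000000, with 1.199 and 1.21 in the KO libraries, 1.38 and 1.38 in the KD libraries and 1.37 in the control. The lowest was on chromosome 13 from 39000001 to 40000000, with 0.080 and -0.34 in the KO libraries, -0.048 and -0.13 in the KD libraries and -0.21 in the control.

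The preference was lower in ARID1A KO than in CAPH2 KD at 119 core A bins and higher at 3 (limma, Benjamini-Hochberg adjusted p under 0.05 over all 2635 bins), 23.1% of core A bins in all. Lower calls were 22.6% of core A bins, against 6.34% of all bins and 2.28% of the 2108 bins outside core A. Higher calls were 0.569% of core A bins, against 33.9% of bins outside core A (36.1% of those were called either way). Over all bins 884 were called (33.5%), 717 higher and 167 lower, and of core B bins 339 were called, all higher. Both KO libraries were below both KD libraries at 359 core A bins (68.1%), against 23.4% of all bins. The median difference over core A was -0.078, with 80% of bins between -0.17 and 0.028, against a median of 0.076 over all bins. Replicates of the same group differed by an SD of 0.051 (KO) and 0.020 (KD) over core A bins. In recovered contacts the direction turned: 222 core A bins were called, all higher in KO, and of 2069 bins called over all, all were higher. There the median of all bins shifted to 0.29 and that of core A to 0.094, so that core A lay 0.20 below all bins, against 0.15 below in balanced signal.

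The number of calls rested on single libraries. Without KD replicate 1 or without KD replicate 2, no bin was called (581 and 552 at an unadjusted p under 0.05), since the spread then came from the KO libraries alone. Without KO replicate 1 the core A calls were 258 (231 lower), and without KO replicate 2 they were 289 (270 lower), with the spread from the KD libraries alone. Over all bins those fits called 1620 and 1805. The core A median stayed between -0.087 and -0.072 over these 4 fits. With members taken as the top 10% of each chromosome, 30 core A bins were called, all lower, of 266.

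The number of lower calls differed between chromosomes. They covered 11 of 15 core A bins on chromosome 17, 5 of 7 on chromosome 22, 7 of 11 on chromosome 19, 16 of 26 on chromosome 11 and 25 of 44 on chromosome 1. Of the bins outside core A, 11.3% were called lower on chromosome 17, 0% on chromosome 22 and 21.4% on chromosome 19. On chromosomes 11 and 1 it was 1.94% and 3.39% of those bins. Chromosomes 13 and 18 had none among 19 and 15 core A bins, and chromosome 2 had 2 of 47. Of the other bins there, 1.32%, 0% and 1.06% were called lower. On the small gene-rich chromosomes 32 of 60 core A bins were called lower (53.3%), against 7.56% of the other bins there. On chromosomes 1 to 5 it was 38 of 203 (18.7%), against 1.85% of the other bins, and on the gene-poor chromosomes 4, 13 and 18 it was 2 of 72 (2.78%), against 0.351%. Within 5 Mb of an end 29 of 81 were called lower (35.8%), against 4.07% of the other bins there, and elsewhere 90 of 446 (20.2%), against 2.17%. Bins outside core A thus also had more lower calls on the small gene-rich chromosomes and near ends, and whether the differences between classes are particular to core A was not tested. The classes also differed in the control's median core A preference. It was 0.92 on the small gene-rich chromosomes, 0.62 on chromosomes 1 to 5 and 0.37 on the gene-poor ones. Near ends it was 0.86, and elsewhere 0.64. Whether the calls follow this level was not tested. By block, lower calls were 8 of 78 single bins (10.3%), 63 of 277 bins in blocks of 2 to 4 Mb (22.7%) and 48 of 172 bins in blocks of 5 Mb or more (27.9%). They were 22.6% of all core A bins, 6.34% of all bins and 2.28% of bins outside core A. The control's median preference rose likewise, from 0.49 to 0.67 and 0.72. The longest block, on chromosome 11 from 61000001 to 76000000, had 12 of its 15 bins called lower, with differences from -0.25 to -0.072. In the 11 Mb block of chromosome 1 it was 6 of 11 bins, and in the 10 Mb block of chromosome 3 it was 4 of 10. Of all core A bins of chromosome 3, 15.4% were called lower, against 2.56% of its other bins.

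**Figure D5:**
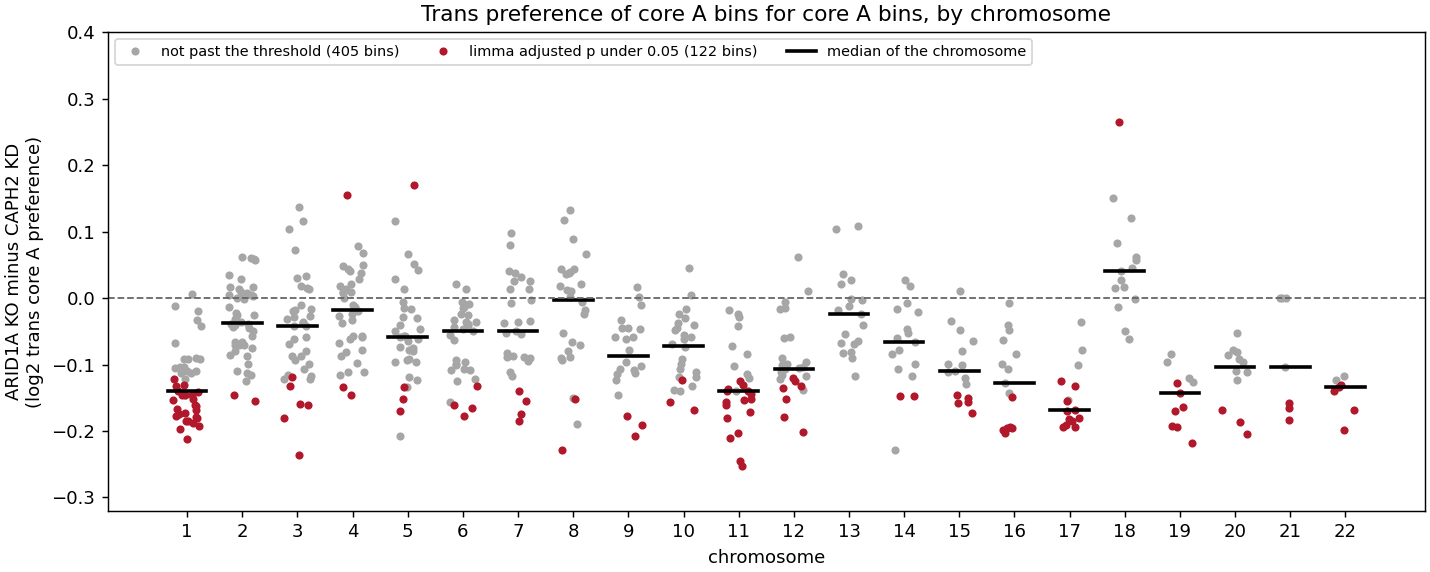
Difference in trans core A preference between ARID1A KO and CAPH2 KD (mean of 2 libraries each, log2) for each of the 527 core A bins, by chromosome; red points passed limma's test (122 bins) and black lines are chromosome medians. Red points lie below 0 except for 3 bins, on chromosomes 4, 5 and 18, and the median is above 0 on chromosome 18 alone.

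The largest falls were in the long block of chromosome 11. From 65000001 to 66000000 the preference was 0.83 and 0.78 in the KO libraries, 1.08 and 1.04 in the KD libraries and 0.99 in the control. The difference of KO from KD was -0.25 (SE 0.037, limma adjusted p = 0.0203). Its neighbour from 64000001 to 65000000 had 0.81 and 0.84 in the KO libraries, 1.05 and 1.08 in the KD libraries and 1.06 in the control, a difference of -0.24 (SE 0.035, limma adjusted p = 0.0198). In both bins the KO libraries were lower than all 3 others. The next falls were on chromosome 3 from 46000001 to 47000000, with 0.70 and 0.78 in the KO libraries, 0.98 and 0.98 in the KD libraries and 0.93 in the control (-0.24, limma adjusted p = 0.0234), and on chromosome 8 from 23000001 to 24000000, with 0.41 and 0.57 in the KO libraries, against 0.72 and 0.72 in the KD libraries and 0.65 in the control (-0.23, limma adjusted p = 0.0472). The fifth was on chromosome 19 from 4000001 to 5000000, with 0.87 and 0.84 in the KO libraries, 1.07 and 1.07 in the KD libraries and 0.99 in the control (-0.22, limma adjusted p = 0.0205). In recovered contacts these 5 bins kept their sign, but their differences shrank to between -0.087 and -0.056. No bin was called lower there.

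The 3 bins that were higher in KO than in KD stood alone, with no neighbouring core A bin. On chromosome 18 from 43000001 to 44000000 the preference was 0.37 and 0.41 in the KO libraries, 0.14 and 0.11 in the KD libraries and 0.46 in the control, a difference of 0.27 (SE 0.035, limma adjusted p = 0.0193). The KO libraries were near the control there, and the KD libraries were low. On chromosome 5 from 14000001 to 15000000 it was 0.18 and 0.10 in the KO libraries, -0.030 and -0.026 in the KD libraries and 0.034 in the control (0.17, limma adjusted p = 0.0411). On chromosome 4 from 110000001 to 111000000 it was 0.14 and 0.11 in the KO libraries, -0.031 and -0.026 in the KD libraries and -0.092 in the control (0.16, limma adjusted p = 0.0298).

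Against the single control library no bin passed. For ARID1A KO, limma called 0 of 2635 bins (0%), with 622 (23.6%) at an unadjusted p under 0.05, of which 146 were lower. Among these 622 were 104 core A bins (19.7% of core A), 100 of them lower. The core A median was -0.063, against 0.050 over all bins, and both KO libraries were below the control at 349 core A bins (66.2%, against 24.1% of all bins). None of the core A bins passes, and the smallest p (limma adjusted p = 0.15 each) belonged to the one on chromosome 11 from 64000001 to 65000000 (-0.24), the one on chromosome 4 from 110000001 to 111000000 (0.22) and one on chromosome 10 from 79000001 to 80000000 (-0.21). Without KO replicate 1 the core A median was -0.054, and without KO replicate 2 it was -0.070. Those fits compare 1 library with 1, and their spread is that of the KD libraries alone. In recovered contacts 1771 bins were called, all higher.

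For CAPH2 KD against the control, limma called 0 of 2635 bins (0%), with 195 (7.40%) at an unadjusted p under 0.05. Of these, 7 were core A (1.33% of core A bins). The core A median was 0.018, against -0.024 over all bins. Both KD libraries were above the control at 301 core A bins (57.1%, against 31% of all bins). The smallest p was again that of chromosome 18 from 43000001 to 44000000, with a difference of -0.34 (limma adjusted p = 0.636). Bins on chromosome 7 from 139000001 to 140000000 (-0.17) and chromosome 2 from 110000001 to 111000000 (-0.15) followed, at the same adjusted p. Without KD replicate 1 the core A median was 0.0178, and without KD replicate 2 it was 0.0185, with 1 library against 1 in each of those fits. Leaving out a KO library cannot move this difference, since it uses no KO values. The KO and KD comparisons share the 1 control library, and whether the KO and KD differences from it differ is the KO against KD test above.

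The cis core A preference, the log2 of a bin's mean observed over expected signal with core A bins of its own chromosome over that with all its bins, was above 0 at 526 and 523 core A bins in the KO libraries, 526 and 527 in the KD libraries and 527 in the control. Its median was 0.59 and 0.64 in the KO libraries, 0.68 and 0.69 in the KD libraries and 0.67 in the control, whose cis signal the rule used. No bin passed for KO against KD (limma, 0 of 2635, 0%). At an unadjusted limma p under 0.05 there were 477 bins (18.1%), of which 33 were core A (6.26% of core A bins). Both KO libraries were below both KD libraries at 259 core A bins (49.1%, against 18.1% of all bins), and the core A median was -0.076. The smallest p among core A bins, short of the threshold, was that of chromosome 6 from 13000001 to 14000000 (-0.39, limma adjusted p = 0.14). Next were the bin from 46000001 to 47000000 of chromosome 21 (-0.44) and the one from 1 to 1000000 of chromosome 16 (-0.34), both with a limma adjusted p of 0.154. On chromosome 6 the preference was 0.032 and 0.10 in the KO libraries, 0.45 and 0.46 in the KD libraries and 0.33 in the control. Without KO replicate 1 the core A median was -0.059, and without KO replicate 2 it was -0.089. In recovered contacts 924 bins were called, 922 of them higher, and the core A median turned to 0.090, against 0.28 over all bins.

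A larger part of the signal of core A bins than of all bins was trans in every library. The sign of the eigenvector was set by the control's trans to cis ratio, so part of this was built into the choice. Of the balanced signal of core A bins, 32.4% and 32.2% was trans in the KO libraries, 34.7% and 34.4% in the KD libraries and 33.0% in the control. For all bins it was 28.0% and 27.9% in the KO libraries, 31.0% and 30.8% in the KD libraries and 29.2% in the control. Contacts within the bin itself took 34.9% and 38.6% of core A signal in the KO libraries, 34.0% and 34.6% in the KD libraries and 33.8% in the control. Without them the trans percent of core A was 49.8% and 52.5% in the KO libraries, 52.5% and 52.6% in the KD libraries and 49.8% in the control, so the KO libraries differed from each other more than the KD libraries did. The trans share, log2 of trans over cis signal without the bin itself, passed in no bin for KO against KD (limma, 0 of 2635, 0%). At an unadjusted limma p under 0.05 there were 841 bins (31.9%), of which 69 were core A (13.1% of core A bins). Both KO libraries were below both KD libraries at 226 core A bins (42.9%, against 64.8% of all bins). The core A median difference was -0.071, against -0.13 over all bins, and in recovered contacts their order turned, with -0.14 in core A against -0.097 over all bins. Without KO replicate 1 the core A median was 0.0015, and without KO replicate 2 it was -0.14. Replicates differed over core A by an SD of 0.15 (KO) and 0.022 (KD), so a fit with 1 KO library rests on the small KD spread alone.

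For trans share, the 3 core A bins of smallest p all lay on chromosome 18, and they did not pass. From 46000001 to 47000000 the trans share was -0.59 and -0.57 in the KO libraries, -0.14 and -0.12 in the KD libraries and -0.38 in the control (difference of KO from KD -0.45, limma adjusted p = 0.0725). The control was between the groups. The bins from 55000001 to 56000000 (-0.43) and from 56000001 to 57000000 (-0.42) followed, each with a limma adjusted p of 0.0742. In recovered contacts these differences were -0.21, -0.12 and -0.10.

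For each of the 231 pairs of chromosomes, the log2 of the mean core A to core A signal over the mean of all their bin pairs was taken, so that a shift of the whole pair cancels. It was above 0 in 230 and 229 pairs in the KO libraries, 229 and 229 in the KD libraries and 229 in the control. As plain ratios, the highest in the control was the pair of chromosomes 9 and 17, at 3.05 in KO replicate 1, 2.84 in KO replicate 2, 3.13 and 3.10 in the KD libraries and 3.08 in the control. Next were 11 and 19 (2.64 and 2.41 in the KO libraries, against 2.90 and 2.94 in the KD libraries and 2.94 in the control) and then 16 and 19 (2.498 and 2.22 in the KO libraries, against 2.73 and 2.599 in the KD libraries and 2.77 in the control). The lowest all held chromosome 13. With chromosome 19 the ratio was 0.763 and 0.780 in the KO libraries, 0.579 and 0.547 in the KD libraries and 0.613 in the control, below 1 throughout. With chromosome 14 it was 1.34 in KO replicate 1 but 0.809 in KO replicate 2, 0.830 and 0.852 in the KD libraries and 0.802 in the control. With chromosome 1 it was 1.30 and 1.21 in the KO libraries, 1.17 and 1.16 in the KD libraries and 1.08 in the control.

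No chromosome pair passed limma's test for KO against KD (0 of 231, 0%; 78 at an unadjusted p under 0.05, of which 67 lower in KO), and the median difference was -0.051. Both KO libraries were below both KD libraries in 111 pairs (48.1%) and above in 35 (15.2%). The 3 smallest p belonged to chromosomes 13 and 19 (0.45), 1 and 22 (-0.22) and 1 and 19 (-0.21), each with a limma adjusted p of 0.056. For chromosomes 1 and 22 the log2 values were 1.05 and 1.08 in the KO libraries, 1.28 and 1.29 in the KD libraries and 1.22 in the control. In recovered contacts the direction turned: 204 pairs were called, all higher in KO, and the median was 0.42. There the pairs 1 and 22 (0.028) and 1 and 19 (0.14) turned as well. In balanced signal a stricter filter on weak bins gave 19 calls (15 lower), and leaving out very strong bin pairs gave 12 (8 lower). None appeared with members as the top 10% or with the replicate number as a block. Members taken from KD replicate 1 gave 17 calls (14 lower), and members from KO replicate 2 gave 1, which was higher. Both of these choices used a library of the tested groups, so they are not independent of the test. Without KO replicate 1 the median was -0.045, and without KO replicate 2 it was -0.043.

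For KO against the control 0 of 231 pairs passed (limma, 0%; 50 at an unadjusted p under 0.05), with a median of -0.047. The smallest p were those of chromosomes 6 and 21 (-0.25), 13 and 19 (0.33) and 1 and 19 (-0.21), each with a limma adjusted p of 0.138. In recovered contacts 185 pairs were called, all higher in KO, the median was 0.35, and the pairs 6 and 21 (0.28) and 1 and 19 (0.11) turned. In balanced signal the median was -0.037 without KO replicate 1 and -0.056 without KO replicate 2, with 1 library against 1 in each of those fits. For KD against the control 0 passed (limma, 0%; 7 at an unadjusted p under 0.05), with a median of -0.0021. The smallest p there were those of chromosomes 15 and 18 (-0.15), 6 and 18 (-0.12) and 10 and 21 (-0.14), each with a limma adjusted p of 0.965.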

How the data were processed

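Each deposited file holds the contact signal between 1 Mb bins of 1 library, and the authors deposited it balanced, as read from the values: 94.9% to 96.5% of measured bins had a row sum within 0.1% of the library's median. Per the submitters' processing notes, the aligner was Bowtie2 and the build hg19. Its version, the read filters and the balancing program are not given in the sources at hand. The members and lists were chosen with earlier results of these data known.

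Of 2667 autosomal bins present in all libraries, 32 with under 0.25 of the control's median recovered total were left out. Totals of balanced signal are equal by construction and could not serve. Whole contacts were recovered by dividing out a factor for each bin, and 98.6% to 99.5% of nonzero trans values were whole within 0.05. Expected signal is the mean per distance, chromosome and library. Trans share used log2 of (trans + 0.5) over (cis + 0.5). Log2 values were tested with limma 3.58.1 (R 4.3.3, lmFit and eBayes) over all 5 libraries in 1 fit with 2 residual degrees of freedom, with Benjamini-Hochberg adjustment at 0.05 over all bins or pairs. The single control has no spread of its own, and that of the 4 other libraries stood in for it. The limma step was tested on simulated data: for trans preference of KO against KD over 2635 bins, 31 of 67 bins changed by 0.25 on the log2 scale were called, 66 of 67 changed by 0.5, and 1 unchanged bin. For cis preference the calls were 0 of 67 at 0.25 and 28 of 67 at 0.5, and for trans share 3 of 67 and 32 of 67. For trans preference of KO against the control they were 17 of 67 and 64 of 67, with 4 unchanged bins called. Changes of 0.25 could thus be missed in all these tests, and changes of 0.5 in cis preference and trans share. The simulated noise was independent between bins, so noise that bins share was not tested. The rest was done in Python (3.11.15) with scipy 1.17.1, numpy 2.4.6 and pandas 2.3.3. Named bins are the 3 highest eigenvectors, for each test the 5 largest passing differences in each direction or the 3 smallest p where none passed, and the 3 highest and lowest chromosomes or pairs. Alternatives were recovered contacts, the replicate number as a block, a weak-bin minimum of 0.5, leaving out very strong pairs, other choices of members and leaving out each replicate. No sequences are printed, since the reference at hand is of another build.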

Additional observations from a re-analysis of the deposited data

How the results depend on the processing

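Recovered contacts in place of balanced signal changed the following results. The trans preference calls for KO against KD were 2069 (all higher) in place of 884 (717 higher and 167 lower), and 1771 for KO against control. Cis preference gave 924 calls, and chromosome pairs gave 204 for KO against KD and 185 for KO against control, all higher. Core A calls turned to 222, all higher. The difference of KO from KD in the core A trans ratio turned to 0.560 and that in the cis ratio to 0.467, and the pairs 1 and 22 (0.028), 1 and 19 (0.14, and 0.11 against the control) and 6 and 21 (0.28) turned. The cause was not tested. Chromosome pairs called for KO against KD were 19 with the stricter weak-bin filter, 12 without very strong pairs and 17 with members from KD replicate 1. Members from KO replicate 2, an alternative chosen after seeing the data, gave 1 pair, which was higher in KO. The members from KO replicate 2 also turned the cis difference to 0.0062. The top 10% as members gave 30 core A calls, with 266 members in place of 527.

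Leaving out 1 library at a time gave from 0 to 1805 calls of trans preference for KO against KD (0 to 289 in core A), 0 to 1306 for KO against control and 0 to 195 for KD against control. It gave 0 to 967 calls of cis preference, 0 to 2330 of trans share, 0 to 79 chromosome pairs for KO against KD, 0 to 53 for KO against control and 0 for KD against control. Differences in the core A ratio ran from -0.046 to -0.038 (trans) and from -0.016 to -0.0011 (cis). A lone library is assumed to vary like the other groups. All calls in these fits came with 1 KO replicate left out. The spread was then that of the KD libraries alone, so their number takes in no spread between KO libraries. The labels do not say whether a replicate number marks a shared batch. Across bins, deviations of same-numbered KO and KD libraries correlated at 0.033 (trans preference), 0.021 (cis preference) and 0.023 (trans share). With so few libraries these values cannot show whether the numbers pair them. A fit with the number as a block called 799 bins and 57 core A bins. Depth limits single bin pairs: of core A pairs between chromosomes, 5.28% and 5.39% held no contact in the KO libraries, 2.21% and 0.553% in the KD libraries and 3.15% in the control.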
